A study of Mus musculus with 12 samples.

Results

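Cited4 knockout hearts (KO) were compared with Flox hearts in the 6 libraries labelled exercise, 3 of each genotype, out of 12 libraries in the series. The 6 libraries were chosen by the genotype and the treatment that their titles spell out. They are called Flox 1 to 3 and KO 1 to 3 by the replicate numbers in the titles. Of 55874 entries in the count table, 1696 that name cloning vectors, phages, adaptors or linkers were dropped, which left 54178. Flox mice were CITED4 flox/flox, with loxP-flanked Cited4 alleles, and KO mice carried the same alleles together with aMHC-cre. The aMHC promoter is active in cardiomyocytes, so the other cells of the heart should keep the gene. Both groups had 8 weeks of voluntary wheel running, per the labels, and RNA came from the whole heart. The bracketed codes in the titles carry the letter S beside the word exercise and E beside the word sedentary, which reads the other way. Should the letters hold and the words be wrong, the comparison would be one between sedentary mice. No group had cre with intact Cited4 alleles, so the transgene and the loss of Cited4 cannot be told apart. The labels do not say which animal gave which sample, so a p-value reflects only how far these samples spread.

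Cited4 encodes a small co-regulator that binds the acetyltransferases CBP and p300 and so affects the genes on which those act. In the heart it is known as a gene linked to the growth that endurance exercise brings about. Physiological growth of this kind involves larger cardiomyocytes, more capillaries and a shift in fuel use, and the genes of those processes are described below beside the clock, interferon and stress genes of the same hearts.

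The 6 libraries held 18098902 to 20061287 counts each, and 15226 genes had enough counts over the 12 libraries to be tested. Cardiomyocyte markers were abundant in all 6. Atrial markers, in contrast, split the libraries: the mean of 17 atrial genes was 5.94 log2 CPM in Flox 2, 5.72 in KO 1 and 5.09 in KO 3, against 2.28, 2.69 and 2.19 in Flox 1, Flox 3 and KO 2. CPM is a gene's count relative to the total of its library, after TMM scaling. The first principal component of the 6 libraries, with 34.5% of the variance, separated the same 3 libraries from the others. A second split came from the vector entries: pJG4-5 had 18415 to 32744 counts in replicates 1 and 3 of both groups and 0 in replicate 2 of both, so each group held the same mix. The labels name no batch, and this class was read from the file. Where a list's count or median moved most, it is also given without the 3 atria-rich libraries, which leaves 1 KO and 2 Flox hearts, and within the 4 libraries with pJG4-5 counts. Those 4 are KO 1 and KO 3, both atria-rich, and Flox 1 and Flox 3, both atria-poor. Genotype and atrial content cannot be told apart there, and the median of the atrial list was 1.54. The fit without the atria-rich libraries sets KO 2, with no pJG4-5 counts, against Flox 1 and Flox 3, which have them. A count from it rests on 1 KO heart.

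Cited4 was almost absent from the KO hearts. Its GRCm38 position is chr4:120666572-120667820, forward strand. It had 406, 261 and 431 counts in Flox 1 to 3 and 3, 0 and 0 in KO 1 to 3, or 23.2, 13.7 and 23.9 CPM against 0.155, 0 and 0. No KO library came near the lowest Flox library. The KO level was 0.259% of the Flox level (exact 95% interval 0.0534 to 0.760, for counting error only). Cited4 fell in KO (fitted log2 difference -8.43 ± 0.61, SE; edgeR, adjusted p = 0.000228), a size that depends on the small count the fit adds where 2 libraries are at 0. With limma voom the difference was -8.62 and did not pass (adjusted p = 0.141); in the other 23 alternative fits it passed, with adjusted p from 2.05e-18 to 0.00811. Cited2, the family member with the next smallest p, stood at 40.5, 42.6 and 30.3 CPM in KO and 36.3, 31.3 and 28.8 in Flox (0.24 ± 0.14), with the groups overlapping.

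The bases upstream of the Cited4 start site are printed since this is the gene the genotypes differ in. The window of 250 bases before the RefSeq start, chr4:120666313-120666562 on the forward strand of GRCm38.p6, ends close to a match to TATAAA, set in capitals. On either strand, 13.6% of the 32851 RefSeq windows from 250 bases before to 50 after a start site hold those letters, and 7.57% of the windows of tested genes.
Cited4: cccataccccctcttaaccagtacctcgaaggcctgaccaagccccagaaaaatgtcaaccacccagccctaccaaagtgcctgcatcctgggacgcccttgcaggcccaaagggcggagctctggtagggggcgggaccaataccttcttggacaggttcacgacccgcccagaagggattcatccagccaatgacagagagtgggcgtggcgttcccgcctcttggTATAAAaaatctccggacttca

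Apart from Cited4 no gene passed, although many stood apart between the groups. At an adjusted p under 0.05, 1 of 15226 genes was called (0.00657%; edgeR's quasi-likelihood test with Benjamini-Hochberg adjustment). At an unadjusted p under 0.05 there were 1209 genes, 590 with KO higher (3.87%) and 619 with KO lower (4.07%). In 1158 genes all 3 KO libraries lay above all 3 Flox libraries (7.61%), and in 1101 all lay below (7.23%). These 4 shares, which hold for this fit, are the background against which the gene lists below are read. Counts under an alternative fit have another background. Within the pJG4-5 class 4.18% of genes had an unadjusted p under 0.05 with KO higher and 5.25% with KO lower. Without Flox 3, 746 of 15579 genes had such a p in either direction. The median difference over all genes was -0.01 on the log2 scale. DESeq2 called 10 genes, among them Cited4, Ccnd2, Atp6v0e2, Osbpl3, Sgk1, Eps8l1, G0s2 and the gene models Gm12895 and Gm8203. Without a filter on low counts edgeR called 4, among them Cited4, Ccnd2 and Atp6v0e2.

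Ccnd2, which encodes the D-type cyclin D2 that starts the G1 phase with CDK4 and CDK6, had the smallest p among genes with KO higher. It stood at 143, 174 and 143 CPM in KO and at 90.3, 91.5 and 84.0 in Flox (1.73-fold, log2 0.79 ± 0.12, SE; edgeR adjusted p = 0.123). All KO hearts lay above all Flox hearts by a margin far wider than the spread within Flox. Atp6v0e2, a membrane subunit of the vacuolar proton pump that acidifies lysosomes, was at 21.7, 23.3 and 28.8 CPM in KO and 12.4, 8.73 and 10.6 in Flox (log2 1.22 ± 0.20; edgeR adjusted p = 0.123). Osbpl3, an oxysterol-binding protein at membrane contact sites, was at 35.8, 33.7 and 31.9 CPM against 22.6, 19.8 and 23.7 (log2 0.62 ± 0.11; edgeR adjusted p = 0.222). Neither gene's groups overlapped. Ccnd2 lies on chromosome 6 at 127125162 to 127152193, Atp6v0e2 on chromosome 6 at 48537615 to 48541801 and Osbpl3 on chromosome 6 at 50293330 to 50456201 (GRCm38).

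The other 9 of the 12 leading genes with KO higher had differences of 0.38 to 0.86 and no overlap between the groups, as the choice by smallest p favours. Each had an adjusted p of 0.601 (edgeR). Sulf2, an extracellular enzyme that trims heparan sulfate and so alters growth factor binding, was at 80.5, 58.3 and 67.2 CPM in KO and 48.8, 52.0 and 40.4 in Flox. Tfb2m, needed to start transcription of mitochondrial DNA, was at 53.7, 55.9 and 57.0 against 44.0, 41.3 and 41.8. Both sets of KO libraries stood above every Flox library, by a narrow margin for Sulf2. Fig4, a phosphoinositide phosphatase of the endosome and lysosome, was at 46.8, 49.8 and 52.4 CPM in KO and 34.7, 35.5 and 34.5 in Flox. Exoc4, a subunit of the exocyst that tethers secretory vesicles, was at 49.1, 44.4 and 50.2 against 36.9, 34.2 and 33.4. The rest were Carmil1, a regulator of actin capping (log2 0.86 ± 0.21), Sdr42e1 of the short-chain dehydrogenase family (0.76 ± 0.18), the quinone reductase Cryz (0.54 ± 0.13), the transporter Slco5a1 (0.51 ± 0.13) and Fam214b (0.38 ± 0.09).

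Sgk1 was among the genes with KO lower that had the smallest p. The gene encodes a kinase that glucocorticoids and insulin signalling control. It was at 43.7, 40.9 and 41.6 CPM in KO and 63.2, 66.6 and 67.8 in Flox (log2 -0.65 ± 0.12; edgeR adjusted p = 0.222). Within each group the Sgk1 values were close together and the gap between groups was wide. Eps8l1, a relative of the actin regulator Eps8, was at 3.25, 2.63 and 0.747 CPM against 17.6, 7.05 and 12.4, so that both groups varied by over a factor of 2 within themselves (log2 -2.47 ± 0.45; edgeR adjusted p = 0.423). G0s2, an inhibitor of the triglyceride lipase ATGL, was at 19.99, 26.1 and 25.2 CPM against 43.4, 31.8 and 49.3 (log2 -0.80 ± 0.16; edgeR adjusted p = 0.523). The groups did not overlap for any of the 3 genes. Sgk1 lies on chromosome 10 at 21882184 to 21999903 and Eps8l1 on chromosome 7 at 4460674 to 4480487 (GRCm38).

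**Figure D1:**
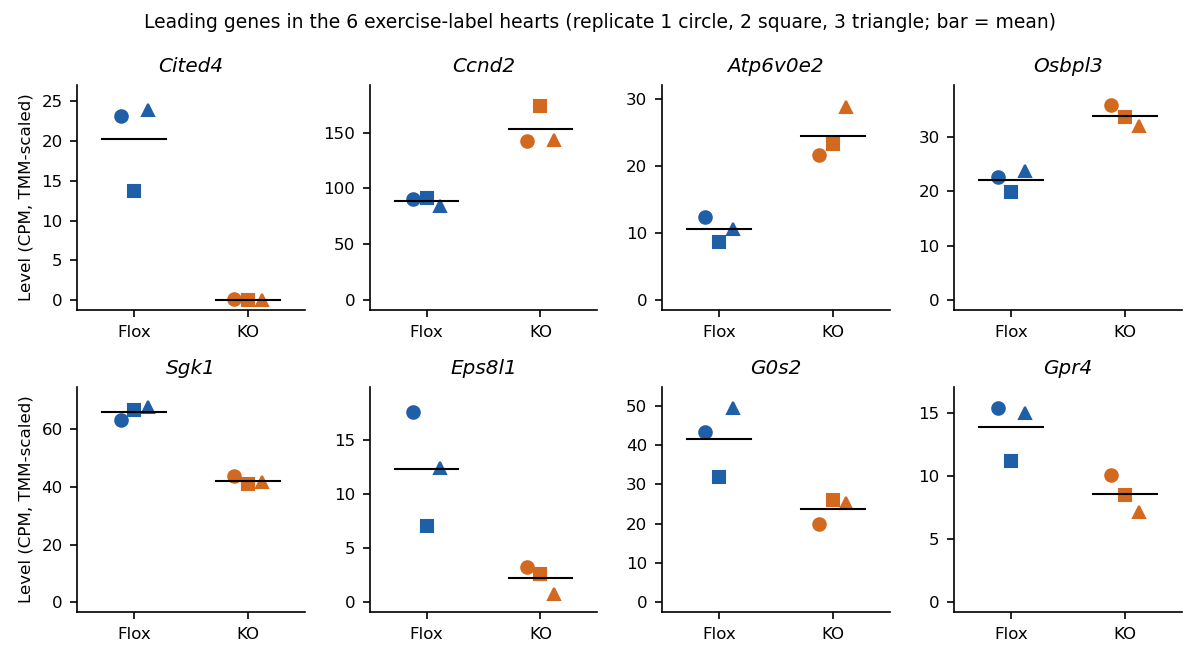
Level of 8 genes (CPM, y axis from 0 with a small margin below it) in the 3 Flox (blue) and 3 KO (orange) hearts labelled exercise; each symbol is 1 library and the bar is the group mean. The groups do not overlap for any of the 8 genes, which are from those with the smallest p; Cited4 is at 0.155, 0 and 0 CPM in KO.

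The remaining leading genes with KO lower included genes of vessels and of the interferon response. Gpr4, a proton-sensing receptor of endothelial cells, was at 10.1, 8.47 and 7.15 CPM in KO and 15.4, 11.2 and 15.02 in Flox. Apold1, an early response gene of endothelial cells, was at 6.70, 7.74 and 7.20 against 13.2, 10.9 and 13.1. For Apold1 the lowest Flox heart was still well above the highest KO heart. Ifi203, an interferon-induced nuclear protein, was at 22.9, 30.0 and 26.3 CPM in KO and 38.6, 38.1 and 45.3 in Flox. Trim34a, of a TRIM family with interferon-induced members, was at 4.38, 5.27 and 6.24 against 8.78, 8.25 and 7.92. Both belong to families with similar neighbouring copies, so their estimated counts are uncertain to that extent. The other 4 were the nucleotide sugar transporter relative Slc35e2 (log2 -0.55 ± 0.13), the motor protein Myo6 (-0.43 ± 0.10), the adaptor Nck1 (-0.39 ± 0.09) and the tetraspanin Tspan2 (-0.65 ± 0.16). All 8 had an edgeR adjusted p of 0.601.

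The sedentary-label hearts, which share no library with these 6, gave a second look at the same genes. Of the 19 genes called there between KO and Flox (edgeR), 11 had the same sign under the exercise label, Cited4 itself included. Of the 11, 4 had an unadjusted p under 0.05, among them Cited4, Phlda3 and Ttll1. Over all tested genes the differences under the 2 labels had a correlation of 0.15, and the share with the same sign was not computed. Phlda3, a p53 target that restrains AKT, was at 15.3, 14.2 and 14.98 CPM in KO and 11.3, 9.62 and 11.3 in Flox under the exercise label (0.47 ± 0.13), beside 0.95 under the sedentary label. Ttll1, a tubulin polyglutamylase subunit, was at 41.0, 40.6 and 36.0 CPM against 45.8, 46.6 and 57.7 (-0.35 ± 0.13), beside -0.93. Ccnd2 and Atp6v0e2 stood at 0.34 and 0.71 in the sedentary-label hearts, with no overlap between groups there either. Sgk1 stood at 0.07, Eps8l1 at 0.11 and G0s2 at 0.23, each beside a negative value here. No gene passed the test of the difference between the 2 labels (interaction; edgeR, smallest adjusted p = 0.279). Unadjusted, 1505 were under 0.05, and DESeq2 called 48.

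**Figure D2:**
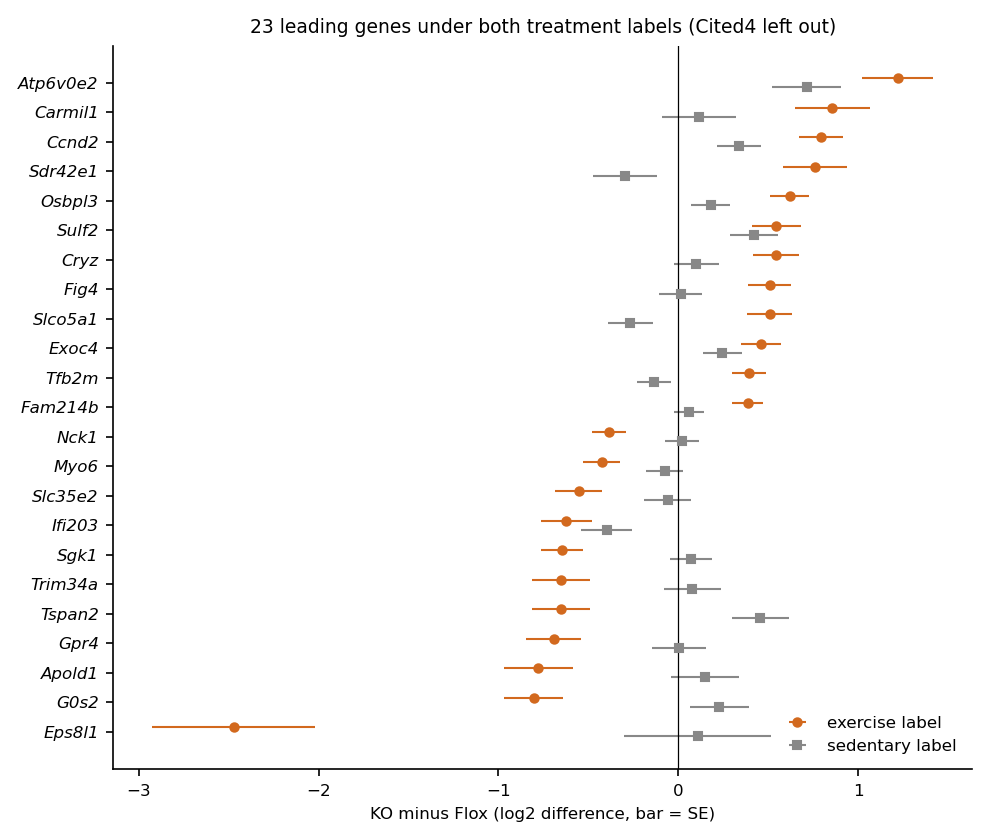
KO minus Flox on the log2 scale (x axis) with its standard error for 23 leading genes other than Cited4, under the exercise label (orange circles) and the sedentary label (grey squares). The genes were chosen by their exercise-label p; Ccnd2 and Atp6v0e2 lie above 0 under both labels, while Sgk1, Eps8l1 and G0s2 lie below 0 under one label and at 0.07, 0.11 and 0.23 under the other.

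Genes of blood vessels were lower in KO hearts as a list, without any member passing. Of 26 endothelial markers, 25 had a negative difference and the list median was -0.34. In 11 of 26 all KO libraries lay below all Flox libraries, beside 7.23% of all genes, and 11 had an unadjusted p under 0.05 with KO lower, beside 4.07%. None lay above. The mean of the 26 genes was 5.51, 5.43 and 5.28 log2 CPM in KO and 5.75, 5.57 and 5.84 in Flox. Fewer endothelial cells and less RNA per cell cannot be told apart in whole hearts.

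Tek, the angiopoietin receptor that keeps endothelium quiescent, was at 58.9, 63.2 and 59.5 CPM in KO and 73.7, 76.3 and 77.7 in Flox (log2 -0.33 ± 0.11). Fli1, an ETS factor of endothelial and blood cells, was at 19.5, 18.3 and 15.4 against 26.5, 20.4 and 25.8 (-0.45 ± 0.14). Emcn, a sialomucin of capillaries and veins, was at 36.5, 36.9 and 35.5 against 44.8, 42.8 and 47.5 (-0.31 ± 0.12). In all 3 genes the groups were separate, most narrowly in Fli1. Clec14a and Ecscr, both endothelial surface proteins, stood at -0.34 ± 0.11 and -0.50 ± 0.19, and Tie1, the partner receptor of Tek, at -0.36 ± 0.14. Each of these 6 had an edgeR adjusted p of 0.601.

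Vascular ligands and receptors showed lower values too, on lists that overlap in part with the endothelial one (Tek and Tie1 are on both). Of 14 ligands 12 had a negative difference and 2 a positive one, and the median was -0.28. There were 6 separate with KO below and 6 at an unadjusted p under 0.05 with KO lower. The list mean was 5.03, 4.97 and 4.78 log2 CPM in KO and 5.27, 5.02 and 5.12 in Flox, so KO 1 lay just above Flox 2. Angpt2, the angiopoietin that loosens vessels during remodelling, was at 3.81, 4.34 and 3.57 CPM in KO and 5.99, 5.36 and 7.26 in Flox (-0.67 ± 0.18). Pdgfb, which recruits pericytes, was at 40.0, 43.6 and 40.1 against 72.4, 47.2 and 67.6 (-0.60 ± 0.18). Vegfa, the main growth factor for capillaries, was at 298, 310 and 216 against 409, 355 and 366 (-0.45 ± 0.17). The KO hearts were lower throughout, with Flox 2 closest to them for all 3 genes. The other 3 were the ephrin Efnb2 (-0.37 ± 0.13), the Notch ligand Jag1 (-0.28 ± 0.11) and the lymphatic growth factor Vegfc (-0.51 ± 0.21).

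Of 18 vascular receptors 17 had a negative difference, 5 were separate with KO below and the median was -0.25. Acvrl1, the BMP9 receptor of endothelial cells, was at 29.6, 31.8 and 27.0 CPM in KO and 38.8, 33.4 and 45.3 in Flox (-0.41 ± 0.13). Pericyte markers had a median of -0.25, with 4 of 10 separate with KO below and 1 with KO above. There were 4 at an unadjusted p under 0.05 with KO lower, and 0 without Flox 3. Vtn, vitronectin, was at 23.03, 26.9 and 18.5 CPM against 28.1, 27.6 and 37.5, and Pdgfrb, the receptor for PDGF-B, at 62.0, 60.0 and 63.1 against 71.6, 68.8 and 80.3. Kcnj8, a channel subunit of pericytes, overlapped (33.2, 37.5 and 30.0 against 37.0, 39.5 and 52.9).

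How many vessel genes reached an unadjusted p under 0.05 depended on single libraries, while the endothelial and ligand medians stayed negative in the alternatives given here. Without Flox 3 the endothelial list had 3 such genes with KO lower and a median of -0.23. The count over all genes fell too, to 746 of 15579 from 1209 of 15226 in either direction. Without the 3 atria-rich libraries, which leaves 1 KO heart, the endothelial median was -0.32. Within the libraries with pJG4-5 counts the list had 15 such genes, beside 5.25% of all genes, and a median of -0.43. Among those libraries genotype cannot be told apart from atrial content. The vascular ligands had a median of -0.29 without the atria-rich libraries. They had 7 such genes and -0.41 within the pJG4-5 class, and the receptors had 1 and -0.19 without Flox 3. The endothelial median was -0.12 in the sedentary-label hearts, with 10 of 26 genes positive, and the smallest interaction adjusted p in the list was 0.379 (edgeR).

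**Figure D3:**
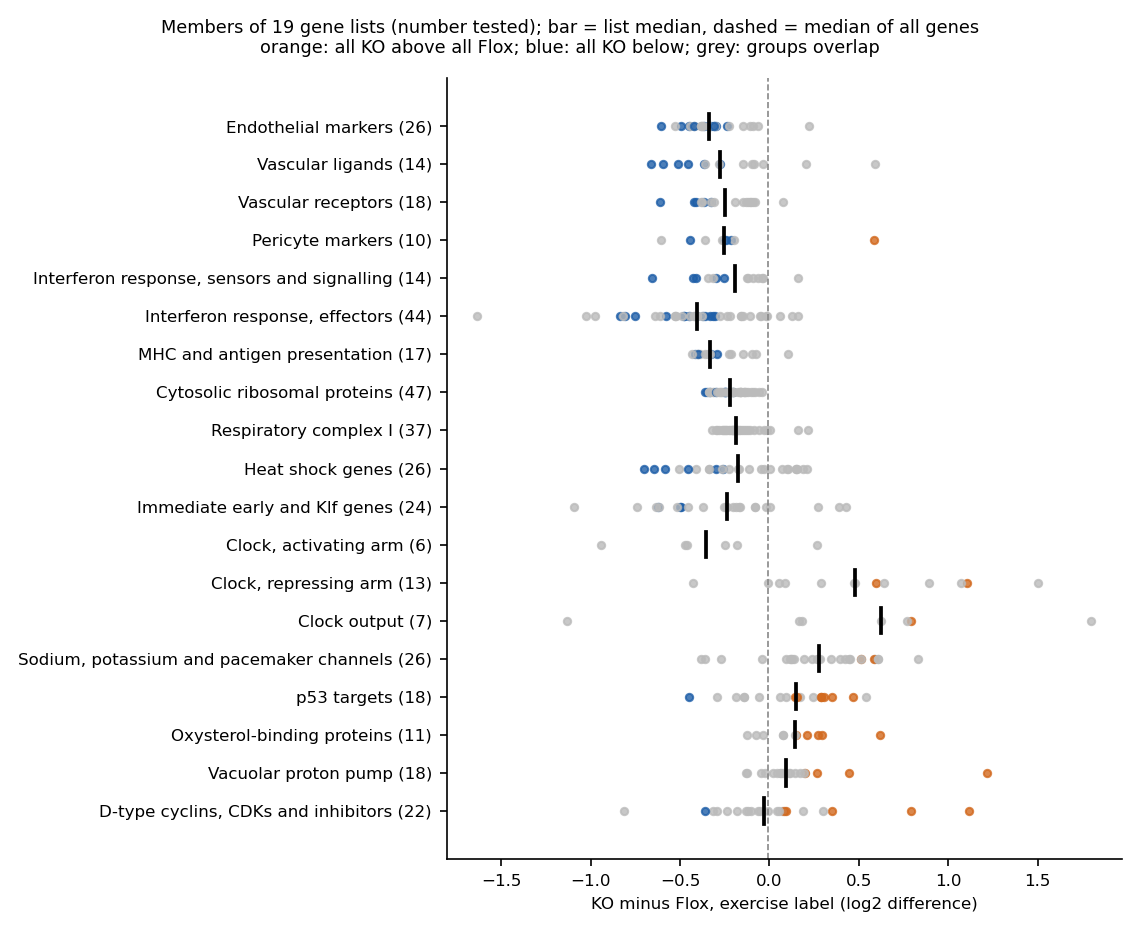
KO minus Flox on the log2 scale (x axis) for each tested member of 19 gene lists (rows, number tested in brackets); orange and blue points are genes whose groups do not overlap, the black bar is the list median and the dashed line the median of all genes. Medians are -0.34 for endothelial markers and -0.41 for interferon effectors, and 0.48 for the repressing arm of the clock; Cited4 is on none of these lists.

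Interferon-response genes had lower values in KO. Cells sense foreign or misplaced nucleic acid through RNA helicases and other sensors, and interferon then acts through STAT2 and IRF9 on a set of antiviral genes. Of 14 sensors and signalling genes 13 had a negative difference, 5 were separate with KO below and the median was -0.19. Of 44 effectors 41 were negative, 13 were separate with KO below, 17 had an unadjusted p under 0.05 with KO lower and the median was -0.41. No member was separate with KO above. The effector mean was 2.94, 3.09 and 3.38 log2 CPM in KO and 3.29, 3.60 and 3.69 in Flox. KO 3 thus lay above Flox 1, and the groups overlapped. The sensor mean was 3.85, 3.95 and 4.04 in KO and 4.07, 4.18 and 4.22 in Flox, narrowly apart. Of the 58 genes on both lists together, 43 matched a RefSeq promoter window by symbol.

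The promoter windows are printed for 3 members because the letters of the interferon-stimulated response element mark many of these genes: a GAAA block, any 2 bases and a second GAAA block, on either strand. They occurred in 22 of 49 windows (44.9%), beside 3.44% of all RefSeq windows and 3.16% of the windows of tested genes. Windows run from 250 bases before the start to 50 after it (GRCm38.p6), matches can overlap, and a match is a description of the letters. Stat2 is the signalling factor itself, on chr10:128270248-128270347 (forward). Isg15, the ubiquitin-like modifier, on chr4:156200836-156200935 (reverse), and Bst2, which tethers virus particles, on chr8:71537545-71537644 (reverse), were chosen for their windows after their values were seen. Capitals mark the matches, which run into each other in Isg15 and Bst2.
Stat2: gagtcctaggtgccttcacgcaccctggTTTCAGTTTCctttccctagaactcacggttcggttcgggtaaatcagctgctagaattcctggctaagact
Isg15: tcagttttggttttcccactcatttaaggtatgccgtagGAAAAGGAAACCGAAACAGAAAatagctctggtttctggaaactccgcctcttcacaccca
Bst2: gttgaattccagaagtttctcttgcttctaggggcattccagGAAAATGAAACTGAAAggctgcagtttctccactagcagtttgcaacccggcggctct

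These 3 genes stood lower in KO, 2 of them without overlap. Stat2 was at 18.8, 21.6 and 18.7 CPM in KO and 22.8, 22.9 and 27.0 in Flox (-0.30 ± 0.16). Bst2 was at 16.9, 18.1 and 18.2 against 23.5, 20.1 and 30.5 (-0.48 ± 0.21). For Isg15, KO 3 at 4.37 CPM lay above Flox 1 at 4.11 (KO 3.19, 3.05 and 4.37; Flox 4.11, 5.31 and 5.87). Among the 21 genes with the letters in a window 6 were separate with KO below and the median was -0.41, and among the 22 with none it was 6 and -0.20.

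Ddx58, the RNA helicase RIG-I, was at 13.4, 13.1 and 14.2 CPM in KO and 18.5, 15.6 and 20.7 in Flox (-0.43 ± 0.12). Ifih1, the sensor MDA5, was at 8.14, 8.36 and 9.38 against 11.6, 9.88 and 12.9 (-0.41 ± 0.14). Dhx58, the regulator LGP2 of both, was at 2.01, 1.86 and 2.35 against 2.74, 3.73 and 3.32 (-0.66 ± 0.23). So the 3 RIG-I-like receptors each had KO below Flox in all libraries, at an edgeR adjusted p of 0.601 each. Samd9l, an antiviral and growth-restraining protein, was at 14.9, 15.6 and 16.6 CPM in KO and 22.4, 19.5 and 23.99 in Flox (-0.48 ± 0.12). Cmpk2, a mitochondrial nucleotide kinase, was at 6.54, 8.21 and 7.47 against 9.92, 10.7 and 12.6 (-0.58 ± 0.15). Further examples were Mx2 (-0.81 ± 0.28), Parp9 (-0.37 ± 0.13) and Ifi35 (-0.31 ± 0.11), all separate with KO below.

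MHC and antigen presentation genes had a median of -0.33, with 16 of 17 negative and 4 separate with KO below. The list mean was 4.794, 4.969 and 4.802 log2 CPM in KO and 4.791, 5.122 and 5.408 in Flox. Every KO heart thus lay at or just above Flox 1, and below Flox 2 and Flox 3. H2-D1, a class I heavy chain, was at 158, 159 and 166 CPM in KO and 177, 197 and 269 in Flox (-0.42 ± 0.19), and H2-T23 at 25.0, 26.7 and 26.2 against 27.3, 31.8 and 38.9. Flox 3 was the highest library in both, and without it the list median was -0.12. It was -0.24 with 11 of 17 negative without the 3 atria-rich libraries. In the sedentary-label hearts it was 0.18, with 14 of 17 positive. Class I genes have near-identical copies, so the split of reads between them is uncertain. Macrophage and monocyte markers had a median of -0.22, none of 21 separate and none at an unadjusted p under 0.05, but the median was 0.22 within the pJG4-5 class. It was 0.44 in the sedentary-label hearts, with 20 of 21 positive. The summed level of these markers was 393 to 670 CPM in KO and 378 to 802 in Flox. T, B and NK cell markers were near the floor: 9 of 16 had too few counts to be tested, Cd3e, Cd8a and Nkg7 among them. The part of immune cells in the interferon values was not tested.

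Counts on the interferon lists moved with Flox 3, as did the count over all genes. Without Flox 3 the effectors had 5 genes at an unadjusted p under 0.05 with KO lower and a median of -0.26. Without the 3 atria-rich libraries the effector median was -0.39. Within the pJG4-5 class it was -0.38 with 12 such genes, beside 5.25% of all genes. The sensor median was -0.12 within the pJG4-5 class. In the sedentary-label hearts the effector median was -0.09.

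**Figure D4:**
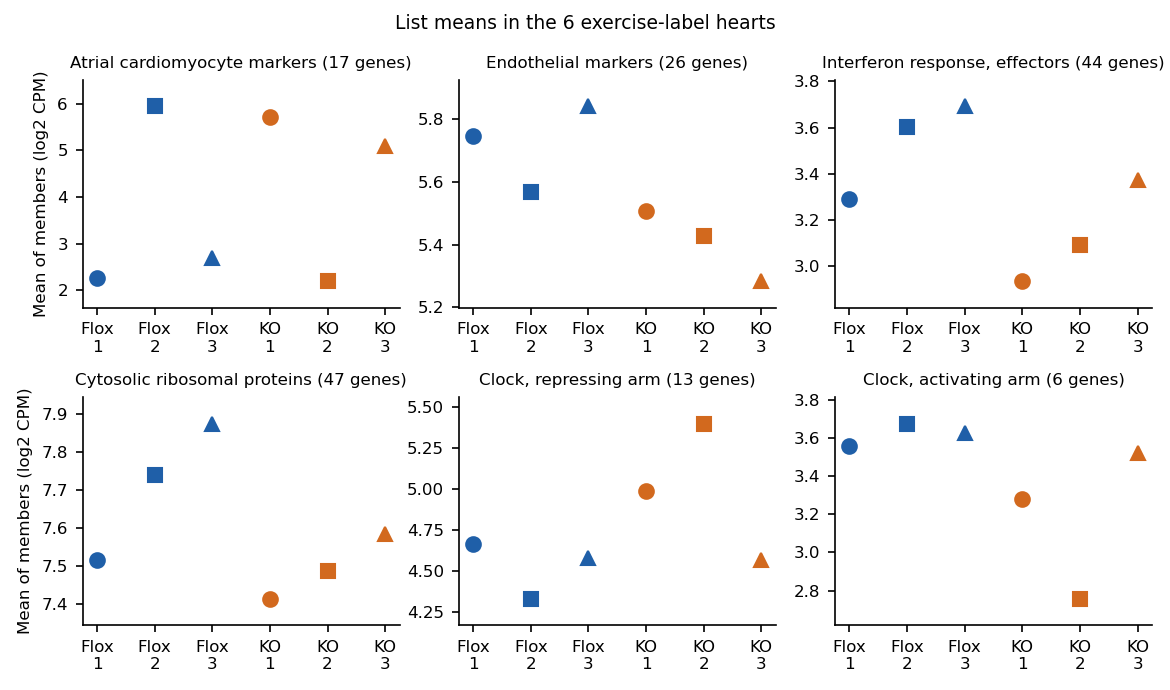
Mean log2 CPM of the members of 6 lists (y axes, each on its own scale and not from 0) in each of the 6 hearts labelled exercise, Flox in blue and KO in orange. The atrial list splits Flox 2, KO 1 and KO 3 (5.09 to 5.94) from the others (2.19 to 2.69) across genotypes, the endothelial list separates the genotypes, and KO 2 stands apart in both clock lists.

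Clock genes differed most in KO 2 and less in KO 1. In the circadian clock BMAL1 (Arntl) with CLOCK or NPAS2 drives the repressors Per, Cry, Nr1d and Bhlhe and the output factors Dbp, Tef and Hlf, and the repressors then shut the activators down, so both arms swing in opposite phase over the day. The repressing arm had a median of 0.48 with 11 of 13 genes positive and 2 separate with KO above, and the output genes had 0.62 with 6 of 7 positive. The activating arm had -0.36 with 5 of 6 negative. KO 2 was the highest of the 6 libraries in 15 of the 26 tested clock genes and the lowest in 4. The labels used here give no time of day at which a heart was taken.

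Dbp, an output factor with a wide daily swing, was at 76.9, 187 and 23.7 CPM in KO and 51.0, 7.57 and 24.05 in Flox (1.8005 ± 0.81), so both groups spread widely and overlapped. Arntl was at 11.03, 3.05 and 19.1 CPM in KO and 22.5, 22.7 and 18.8 in Flox (-0.95 ± 0.74). Per3, a period gene, was at 27.7, 69.1 and 22.8 against 18.7, 14.9 and 22.1 (1.10 ± 0.50). The libraries kept one order across these genes: KO 2 was at one extreme, KO 1 was between and KO 3 was within or next to the Flox range. Ciart, a repressor of the CLOCK complex, was at 4.17, 10.997 and 2.35 CPM in KO and 2.68, 1.52 and 1.99 in Flox, and Per2 at 10.4, 21.9 and 5.33 against 5.36, 3.58 and 8.98.

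Bhlhe41 and Cry2 had the smallest p of the repressing arm. Bhlhe41, a basic helix-loop-helix repressor, was at 31.0, 47.6 and 22.3 CPM in KO and 23.95, 12.9 and 17.6 in Flox (0.89 ± 0.26). Cry2, a cryptochrome, was at 32.5, 43.9 and 27.9 against 24.7, 22.6 and 21.8 (0.59 ± 0.20), all KO above all Flox. Both had an edgeR adjusted p of 0.601. Tef was at 117, 210 and 95.8 CPM against 91.8, 61.6 and 90.7, Nr1d2, the repressor REV-ERB beta, at 99.5, 149 and 69.4 against 81.3, 54.1 and 69.0, and Usp2, a deubiquitinase of clock proteins, at 93.5, 122 and 59.2 against 68.5, 50.2 and 59.8. Against the medians, Nfil3, the repressor that competes with Dbp, was at 5.31, 5.58 and 11.5 CPM in KO and 11.01, 21.5 and 16.6 in Flox (-1.13 ± 0.38), and Cry1 was at -0.43 ± 0.24. The paralog Bhlhe40 stood at 0.29 ± 0.12, Hlf at 0.77 ± 0.41, Nr1d1 at 0.48 ± 0.37 and Npas2 at -0.46 ± 0.51.

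Without KO 2 the clock differences shrank: Dbp was at 0.87 ± 0.75, Per3 at 0.44 ± 0.42, Arntl at -0.50 ± 0.69, Bhlhe41 at 0.56 ± 0.22 and Cry2 at 0.39 ± 0.19. The medians were then 0.36 for the repressing arm, 0.36 for the output genes and -0.17 for the activating arm. Without KO 1 the repressing median was 0.30, and without KO 3 it was 0.73. Within the pJG4-5 class, which also lacks Flox 2, no clock gene of the repressing or output lists had an unadjusted p under 0.05 and the medians were 0.15 and 0.22. Without the atria-rich libraries, where KO 2 is the single KO heart, they were 0.51 and 0.94. In the sedentary-label hearts the medians were -0.19 and -0.38.

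**Figure D5:**
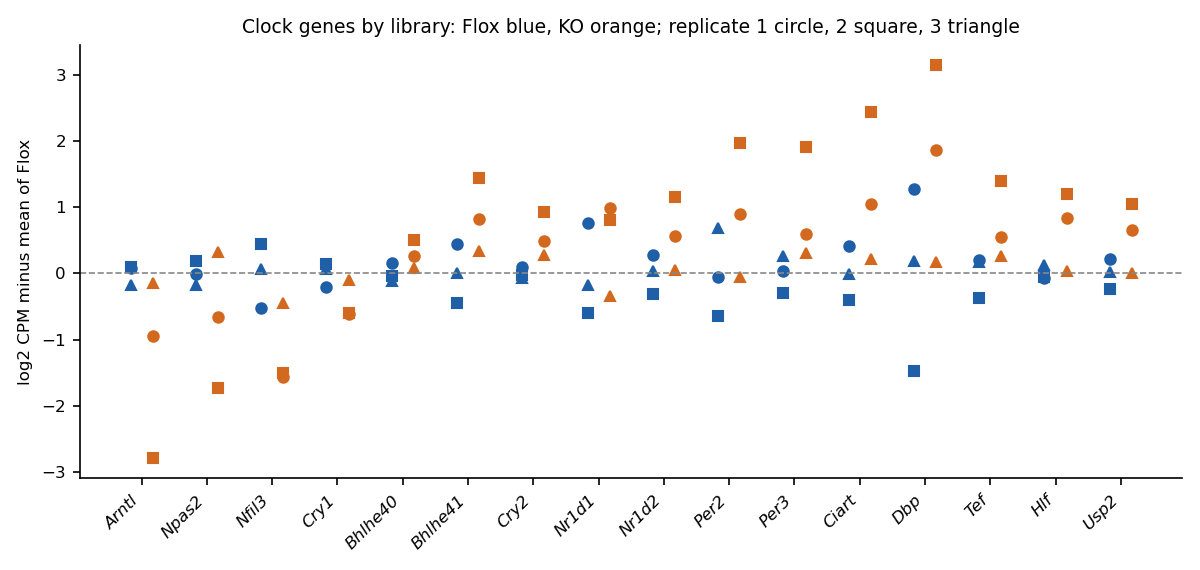
Log2 CPM minus the mean of the 3 Flox hearts (y axis) for 16 clock genes in Flox (blue) and KO (orange) hearts; each symbol is 1 library and squares are replicate 2. KO 2 lies lowest for Arntl (3.05 CPM) and highest for Dbp (187 CPM) and Per3 (69.1 CPM), while KO 3 lies near the Flox hearts.

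Promoter windows of 4 of these genes are printed because they carry the letters through which the clock is known to act. All 4 had a positive difference. The E-box letters also occurred in windows of Cry1, at -0.43, and Per1, which are not printed. The E-box CACGTG, bound by BMAL1 and CLOCK and identical on both strands, occurred in 6 of 29 windows of clock genes (20.7%), beside 7.15% of all RefSeq windows and 9.65% of those of tested genes. The D-box letters TTATGTAA, on either strand, occurred in 1 of the 29, that of Per3, beside 0.938% of all. Of the 26 genes 20 matched a window. Capitals mark the matches, 3 E-boxes in Ciart (chr3:95882256-95882355, reverse), 1 in Bhlhe41 (chr6:145865521-145865620, reverse) and in Tef (chr15:81802499-81802598, forward), and 2 D-boxes in Per3 (chr4:151044794-151044893, reverse).
Ciart: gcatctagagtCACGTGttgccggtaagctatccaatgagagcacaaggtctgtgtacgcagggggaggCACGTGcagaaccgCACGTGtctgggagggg
Bhlhe41: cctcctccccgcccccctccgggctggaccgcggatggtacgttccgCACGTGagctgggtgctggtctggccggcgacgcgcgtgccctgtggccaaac
Tef: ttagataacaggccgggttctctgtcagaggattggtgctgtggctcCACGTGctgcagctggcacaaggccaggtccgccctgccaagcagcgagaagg
Per3: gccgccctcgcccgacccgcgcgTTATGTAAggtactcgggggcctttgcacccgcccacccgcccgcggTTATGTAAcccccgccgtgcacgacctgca

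Heat shock genes, which encode chaperones that refold proteins, had a median of -0.17 with 17 of 26 negative, 6 separate with KO below and 8 at an unadjusted p under 0.05 with KO lower. Dnajb1, a co-chaperone of Hsp70, was at 12.1, 10.9 and 15.4 CPM in KO and 17.1, 17.9 and 22.4 in Flox (-0.58 ± 0.17). Dnaja1, another Hsp70 partner, was at 55.5, 59.1 and 75.1 against 92.1, 75.1 and 102 (-0.50 ± 0.13). KO 3 reached the lowest Flox value for Dnaja1 and stayed below it for Dnajb1. Hspa1b, an inducible Hsp70 with the near-identical copy Hspa1a, was at 2.73, 2.68 and 5.44 CPM against 5.93, 5.99 and 5.71 (-0.70 ± 0.26), and Hsf1, the factor that drives the response, at 27.7, 25.6 and 30.1 against 35.5, 30.8 and 33.5 (-0.26 ± 0.11). Cryab, a small heat shock protein abundant in cardiomyocytes, overlapped (-0.34 ± 0.15). Without Flox 3 the list had 4 genes at an unadjusted p under 0.05 with KO lower, and without Flox 1 its median was -0.10. There were 6 such genes and a median of -0.28 without the 3 atria-rich libraries.

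Hspe1, the mitochondrial co-chaperonin, was at 87.2, 86.1 and 95.3 CPM in KO and 141, 93.8 and 124 in Flox (-0.41 ± 0.15), with KO 3 just above Flox 2. Its promoter is printed as the window in which the heat shock element letters are easiest to see: GAA, any 2 bases, TTC, any 2 bases and GAA, on either strand. They occurred in 5 of 31 windows of heat shock genes (16.1%), beside 0.603% of all RefSeq windows. These windows are not all distinct. A window of Hspd1, on the reverse strand, holds the same matches as that of Hspe1, and 2 windows of Hsph1 overlap. The Hspe1 stretch printed is chr1:55088018-55088117 on the forward strand (GRCm38.p6), and capitals mark 2 overlapping matches.
Hspe1: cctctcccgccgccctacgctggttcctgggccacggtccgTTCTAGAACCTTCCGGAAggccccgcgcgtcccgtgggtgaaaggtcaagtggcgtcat

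Immediate early and Klf genes had a median of -0.24, with 20 of 24 negative and 3 separate with KO below. Klf2, which blood flow induces in endothelium, was at 29.5, 34.0 and 43.7 CPM in KO and 45.3, 57.9 and 62.0 in Flox (-0.62 ± 0.19). Klf4, its relative in the same cells, was at 27.0, 21.3 and 29.0 against 34.9, 32.3 and 41.8 (-0.50 ± 0.14). Dusp1, a phosphatase that ends MAP kinase signals, was at 46.4, 44.8 and 42.4 against 52.6, 66.1 and 70.2 (-0.50 ± 0.20). In all 3 the KO hearts lay below the Flox hearts, for Klf2 by little. The list median was -0.10 within the pJG4-5 class, with 14 of 24 negative and 1 at an unadjusted p under 0.05 with KO lower, and -0.15 without KO 1. It was 0.54 in the sedentary-label hearts. Dusp1 and Sgk1 also belong to the glucocorticoid-responsive list, whose median was 0.05, and -0.34 with 10 of 18 negative without the 3 atria-rich libraries. On that list Errfi1, an inhibitor of EGF receptors, stood at -0.79 ± 0.29 and Zbtb16, a strongly steroid-induced factor, at 34.2, 32.9 and 18.1 CPM in KO against 9.64, 9.10 and 14.1 in Flox (1.37 ± 0.62).

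Genes of cytosolic ribosomes were negative in 47 of 47 members, with a median of -0.22 and a narrow range from -0.36 to -0.04. In 9 of 47 the KO hearts lay below all Flox hearts, and 2 had an unadjusted p under 0.05. Rplp2, a stalk protein, was at 147, 153 and 133 CPM in KO and 171, 175 and 206 in Flox (-0.35 ± 0.14), and Rpl28 at 133, 129 and 136 against 145, 175 and 191 (-0.36 ± 0.15). These genes vary together between libraries: the list mean was 7.41, 7.49 and 7.59 log2 CPM in KO and 7.52, 7.74 and 7.87 in Flox, so KO 3 lay above Flox 1. Leaving out a library gave 0 genes at an unadjusted p under 0.05 with KO lower without Flox 3 and up to 9 otherwise. There were 0, and 45 of 47 were negative, without the 3 atria-rich libraries. In the sedentary-label hearts 39 of 47 were positive, with a median of 0.09.

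Nuclear genes of the respiratory chain were also mostly negative, without genes that stood out. Complex I had a median of -0.19 with 34 of 37 negative, none separate and none at an unadjusted p under 0.05. Complexes II to V had -0.18 with 37 of 41 negative and 3 separate with KO below, beside 1 above. Cox7a1, the heart and muscle form of a cytochrome oxidase subunit, was at 562, 562 and 425 CPM in KO and 637, 575 and 895 in Flox (-0.44 ± 0.19). Without Flox 3 the medians were -0.03 for complex I and -0.04 for complexes II to V. Within the pJG4-5 class they were -0.38, with 36 of 37 negative and 8 at an unadjusted p under 0.05 with KO lower, and -0.31, with 40 of 41 negative and 2 at such a p. In that class both KO hearts are atria-rich and both Flox hearts atria-poor, so genotype cannot be told apart from atrial content. The medians were -0.11 and -0.05, the latter with 25 of 41 negative, without the 3 atria-rich libraries. In the sedentary-label hearts they were -0.31, with 37 of 37 negative, and -0.32, with 40 of 41 negative. Regulators of mitochondrial biogenesis had a median of 0.04. Esrrb, an orphan nuclear receptor of energy genes, was at 30.1, 29.5 and 24.6 CPM in KO against 19.2, 20.03 and 17.8 in Flox (0.56 ± 0.17), and its relative Esrrg was at 40.6, 32.2 and 36.4 against 27.2, 28.3 and 28.7 (0.37 ± 0.20). With Tfb2m above and the mitochondrial helicase Twnk (0.29 ± 0.14), 5 of 22 were separate with KO above and 2 with KO below.

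Glucose genes had a median of 0.08 with 5 of 28 separate with KO above and 1 below, and -0.01 within the pJG4-5 class. Pdha1, the catalytic subunit of pyruvate dehydrogenase, was at 999, 1069 and 911 CPM in KO and 810, 817 and 793 in Flox (0.30 ± 0.13), and Pdk1, the kinase that inhibits it, at 142, 162 and 145 against 116, 123 and 123 (0.31 ± 0.15). Txnip, which restrains glucose uptake, was at 638, 910 and 318 against 376, 271 and 349 (0.90 ± 0.32), where KO 2 was again the highest library and KO 3 lay within the Flox range. Fatty acid uptake and oxidation genes had a median of -0.04 with 19 of 32 negative. In the sedentary-label hearts it was -0.41 with 29 of 32 negative. Ucp2, the member of that list with the smallest p, was at 152, 78.9 and 138 CPM in KO and 75.6, 82.6 and 65.1 in Flox (0.72 ± 0.22). Ucp2 was high in the 2 atria-rich KO hearts and stood at 0.18 without the 3 atria-rich libraries.

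Sodium, potassium and pacemaker channel genes had a median of 0.28 with 22 of 26 positive. Of these genes 2 were separate with KO above and 4 had an unadjusted p under 0.05 with KO higher. Kcnj5, a subunit of the atrial channel that acetylcholine opens and itself on the atrial list, was at 94.5, 81.5 and 92.2 CPM in KO and 63.4, 76.7 and 47.9 in Flox (0.51 ± 0.23). Kcnh2 and Kcnq1, which carry the rapid and slow delayed rectifier currents, stood at 0.42 ± 0.18 and 0.44 ± 0.19, and Kcnj12, an inward rectifier, at 0.51 ± 0.23. Atrial markers moved with this list: 13 of 17 were positive with a median of 0.33, their summed level ran from 441 to 3786 CPM in KO and from 438 to 5086 in Flox, and none was at 0 in all libraries. Without the 3 atria-rich libraries the channel median was 0.06 with none at an unadjusted p under 0.05 and KO higher, and with the atrial mean as a covariate 0.19 with 2.

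Calcium cycling genes had a median of 0.06. Slc8a1, the sodium-calcium exchanger, was at 459, 336 and 317 CPM in KO and 296, 272 and 168 in Flox (0.60 ± 0.26). Ryr2, the release channel of the sarcoplasmic reticulum, overlapped (0.44 ± 0.25), as KO 2 lay within the Flox range. Itpr1, the IP3 receptor, was at -0.24 ± 0.10. Jsrp1, a low-count gene of the muscle reticulum, was at 0.721, 1.03 and 1.23 CPM in KO and 0.456, 0.368 and 0.166 in Flox. Among skeletal muscle markers Atp2a1, the fast-muscle calcium pump, was at 1.13, 2.07 and 1.39 CPM against 0.228, 0.473 and 0.499. Of 13 skeletal muscle markers 6 had enough counts to be tested, Myh4 was at 0 in all 6 libraries, and 3 of the 6 were negative.

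Adrenergic and protein kinase A genes had a median of 0.15, with 4 of 21 separate with KO above and none below. Adcy5, the main cardiac adenylyl cyclase, was at 105, 75.3 and 107 CPM in KO and 72.5, 63.0 and 52.2 in Flox (0.61 ± 0.18), and Prkacb, a catalytic subunit of protein kinase A, at 58.1, 59.3 and 61.3 against 48.1, 50.3 and 46.8 (0.30 ± 0.12). The groups were separate for both. Grk5, a kinase that desensitises receptors, overlapped through Flox 2 (0.33 ± 0.14). Without the 3 atria-rich libraries none of the 21 had an unadjusted p under 0.05 with KO higher.

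Contractile and stress genes showed no common direction. Cardiomyocyte markers had a median of 0.01 with 12 of 24 positive, and 4 were separate with KO above. Myom2, an M-band protein, was at 895, 1224 and 942 CPM in KO and 678, 626 and 618 in Flox (0.67 ± 0.18), Mybpc3, myosin-binding protein C, at 3929, 4308 and 4010 against 3369, 2159 and 3243 (0.48 ± 0.23), and Lrrc10 at 110, 87.8 and 101 against 78.4, 68.3 and 82.1 (0.39 ± 0.16). Myl2, the ventricular light chain, lay on the other side at -0.31 ± 0.19, with overlap. Of the hypertrophy and stretch genes, with a median of 0.06, Ankrd1, an ankyrin repeat protein that stretch induces, stood at 867, 1225 and 1070.5 CPM in KO and 595, 748 and 691 in Flox (0.64 ± 0.19). The sedentary-label hearts had 0.92 for Ankrd1, also without overlap. Nmrk2, a muscle kinase that makes NAD, was at 7.78, 6.51 and 9.33 against 11.6, 12.9 and 10.1 (-0.55 ± 0.15).

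Around Ccnd2, the genes of the G1 phase did not share its direction. The list of 22 D-type cyclins, CDKs and inhibitors had a median of -0.03, with 5 separate with KO above, 1 below and 3 at an unadjusted p under 0.05 with KO higher. Ccne1, cyclin E1, was at 1.29, 1.45 and 1.44 CPM in KO and 0.513, 0.789 and 0.610 in Flox (1.12 ± 0.39), and Rbl2, the pocket protein p130 that holds cells in quiescence, at 41.4, 44.97 and 40.8 against 36.2, 36.2 and 27.3 (0.35 ± 0.15). The other D-type cyclins overlapped. Ccnd1 was at 79.9, 68.5 and 53.4 CPM in KO against 83.1, 58.3 and 87.6 in Flox, and Ccnd3 at 66.3, 56.9 and 59.6 against 64.6, 51.9 and 59.7. None of 34 proliferation and mitosis genes was separate or had an unadjusted p under 0.05, and their median was -0.26. It was -0.63 without KO 3 and 0.34, with 4 genes at an unadjusted p under 0.05 and KO higher, within the pJG4-5 class. There genotype cannot be told apart from atrial content.

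Atp6v0e2 likewise led a list with small differences. Of 18 subunits of the vacuolar proton pump 14 were positive, 4 were separate with KO above and none below, and the median was 0.09. Atp6v1d, a subunit of the rotor, was at 73.4, 82.8 and 78.0 CPM in KO and 65.1, 60.6 and 69.3 in Flox (0.27 ± 0.09), Atp6v1g2 at 3.25, 3.05 and 3.15 against 2.40, 2.103 and 2.44 (0.44 ± 0.20), and Atp6ap1, an accessory subunit, at 121, 123 and 124 against 104, 107 and 110 (0.20 ± 0.09). The spread within a group was small for each. Of 11 oxysterol-binding proteins 5 were separate with KO above, beside 7.61% of all genes, and the median was 0.14, or 0.08 without the 3 atria-rich libraries. Osbp, the founding member, was at 108, 109 and 108 CPM in KO and 94.0, 88.5 and 82.7 in Flox (0.30 ± 0.13), and Osbpl8 at 80.7, 76.8 and 85.8 against 66.2, 73.2 and 61.9 (0.27 ± 0.15).

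Of 18 tested p53 targets 7 were separate with KO above and 1 below, with a median of 0.15 and 2 at an unadjusted p under 0.05. Beside Phlda3, Trp53inp1, a stress-induced promoter of p53 activity, was at 16.4, 14.9 and 16.8 CPM in KO and 12.1, 13.2 and 12.5 in Flox (0.35 ± 0.13). Sesn1, which restrains mTORC1, was at 96.8, 94.4 and 83.0 against 71.4, 71.8 and 78.5 (0.31 ± 0.16), and Ccng1, cyclin G1, at 702, 738 and 634 against 614, 523 and 563 (0.29 ± 0.16). The exception was the death receptor Tnfrsf10b at 4.64, 3.56 and 3.52 against 4.96, 5.89 and 5.15 (-0.45 ± 0.21). Without the 3 atria-rich libraries the median was 0.15 with 1 at an unadjusted p under 0.05 and KO higher, and within the pJG4-5 class 0.11 with 2. Among insulin and growth signalling genes, with a median of 0.04 and 21 of 29 positive, Insr, the insulin receptor, was at 149, 145 and 123 CPM in KO and 114, 113 and 107 in Flox (0.32 ± 0.15). On the list of C/EBP factors and regulators of exercise growth, with a median of -0.01, Foxo3, the factor that insulin signalling keeps out of the nucleus, was at 86.5, 85.2 and 70.5 against 57.4, 52.7 and 53.7 (0.56 ± 0.21).

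Markers of further cell types varied with the libraries. Fibroblast and matrix genes had a median of -0.07 with 1 of 30 separate in each direction, -0.38 without the 3 atria-rich libraries and 0.27 within the pJG4-5 class. Tcf21, a factor of cardiac fibroblasts, overlapped (-0.59 ± 0.25). Adipocyte markers, whose median was 3.92 in the sedentary-label hearts, had a median of 0.14 here, with none of 20 at an unadjusted p under 0.05 and summed levels of 636 to 860 CPM in KO and 783 to 970 in Flox. The adipocyte median was 0.55 without Flox 3 and -0.04 without the 3 atria-rich libraries, and up to 4 genes had an unadjusted p under 0.05 with KO higher when 1 library was left out. Mesothelial markers had a median of 1.48, none of 9 separate, and followed the atria-rich libraries, with means of -0.07, -1.47 and 2.92 log2 CPM in KO and -1.46, 1.37 and -1.08 in Flox.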

How the data were processed

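Whole-heart RNA (Trizol, RiboZero depletion, NEB library kit, per the labels' protocols) was quantified by the authors as estimated counts per gene symbol, and the deposited table holds these expected counts, not scaled between libraries. Salmon and FastQC are named without versions, and mm9 and mm10 without a role, in the submitters' processing notes. Strand setting and annotation release: not given in the sources used here. In the 6 libraries 21.7% to 22.4% of values were not whole numbers, so the estimates were rounded for the tests. Vector, phage and adaptor entries were left out of totals and tests.

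Genes were tested with edgeR 4.0.16 (R 4.3.3) after filterByExpr and TMM scaling, in one model with a mean for each of the 4 groups of all 12 libraries, which share one estimate of spread, using glmQLFit with robust estimation and glmQLFTest, adjusted by Benjamini-Hochberg over 15226 genes with a threshold of 0.05. Standard errors came from the log2 difference and its F statistic. The procedure was tested on simulated counts. Replicate pairs differed by a chi-square per degree of freedom of 22.9 to 69.2, so none looked like one library entered again. The 13 mitochondrially encoded protein genes took 22.7% to 27.2% of counts.

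The 52 gene lists and the named genes were chosen with earlier results of these data known. The text names Cited4, the 12 genes with the smallest p in each direction with at least 1 CPM on average and a symbol that is not a clone name, up to 6 members with the smallest p in a list, and any member of the CITED, D-type cyclin, proton pump and clock lists. One gene that the rule selects is not reported here. Lists are described by counts and medians, without a test. Positions came from GENCODE M21 and promoter windows from RefSeq (GRCm38.p6), whatever build the counts used. Alternatives were DESeq2 1.42.0, limma voom, other scalings, filters and covariates, a replicate block and leaving out each library.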

Additional observations from a re-analysis of the deposited data

Results flagged for a closer look

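A vector entry left out of the tests separated the genotypes. The phagemid vector pBK-CMV had 610, 780 and 567 counts in KO 1 to 3 and 8, 1 and 6 in Flox 1 to 3 under the exercise label. Under the sedentary label it had 889, 818 and 732 counts in KO and 0, 5 and 3 in Flox, so the lowest KO values were 567 and 732. The signal lies in data that the comparisons did not use and all 6 KO libraries stand above all 6 Flox libraries.

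For 4 of the genes named above, the 3 KO libraries lay on one side of the 3 Flox libraries under the exercise label and on the other side under the sedentary label. This holds for 110 of the tested genes (0.722%). Angpt2 differed by -0.67 here and 0.82 under the sedentary label (edgeR interaction, adjusted p = 0.279). Hspa1b differed by -0.70 and 0.55 (edgeR interaction, adjusted p = 0.404), Sdr42e1 by 0.76 and -0.30 (0.379) and Atp6v1g2 by 0.44 and -0.31 (0.457). None of the 4 passed the interaction test, and beyond it the difference was not tested.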

How the results depend on the processing

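Under 24 alternatives, 3 of them chosen after seeing the data, 1 gene was called except as follows. DESeq2 called 10, limma voom none (1163 genes at an unadjusted p under 0.05), the fit without a filter on low counts 4, and the fit without the 3 atria-rich libraries 2 (Cited4 and Gm42742). Leaving out a library gave 1 to 2 genes, with Rpl15-ps3 added without Flox exercise 1, Atp6v0e2 without Flox sedentary 1 and another gene without Flox sedentary 2. On leaving out a library, genes at an unadjusted p under 0.05 ran from 746 without Flox exercise 3 to 1464 without KO sedentary 1, and there were 1486 with the pJG4-5 class as a covariate. The interaction had 0 calls, but 48 with DESeq2, 1 without a filter and 0 to 2 on leaving out a library. Cited4 ran from -11.6 to -7.90 on leaving out a library, missing the threshold with limma voom alone (-8.62, adjusted p = 0.141).

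With the replicate block, 1 gene was called, 918 had an unadjusted p under 0.05 and Cited4 stood at -8.45 (edgeR adjusted p = 0.00337). Same-numbered libraries deviated from their group means with correlations of 0.06, -0.32 and -0.04. With 3 libraries a group, divided by atrial content, these values cannot decide whether the numbers pair the libraries. The pJG4-5 counts did follow the replicate number, at 0 in replicate 2 of both groups.

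Of 127 genes besides Cited4 followed through the alternatives, 2 changed sign. Npas2 went to 0.0065 within the libraries with pJG4-5 counts. Ccnd3 went to -0.12 without the atria-rich libraries and, leaving out a library, to between -0.020 and 0.127. Many of the 127 were chosen for a small p in the main fit, and the alternatives reuse its libraries. A stable sign was thereby favoured in advance. Of 1247 list medians computed, 46 moved by more than the list's own spread between replicates. That bar is high for lists that vary widely between libraries. Without Flox 2 the atrial median went from 0.33 to 1.14, and the proliferation median from -0.26 to 0.20. Neither shift was among the 46. No scaling moved the median of all genes by over 0.1. Depth limits the size given for Cited4, which rests on 3, 0 and 0 counts in KO.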
